A study of Mus musculus with 13 samples.

Results

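The NRF2 and glutathione defense genes are 10 genes that protect cells against oxidants and reactive electrophiles. They were taken by name from the 15213 genes of the deposited table, and all 10 were listed. No measured value enters this rule, but the list was drawn up with earlier results of these data known. Their mRNA was compared between 10 mammary tumors and 3 mammary glands of female mice. The tumors came from 6 MMTV-tTA TetO-Tsg101 females, labelled MtTA Teto-TSG101wt, of which 3 mice gave 1 tumor, 2 mice gave 2 and 1 mouse gave 3, and the glands were those of 3 wild-type FVB females. In the bitransgenic animals the tetracycline-controlled transactivator tTA is driven by the MMTV promoter, which is active mainly in luminal epithelium, and it turns on a TetO transgene for full-length TSG101, a subunit of the endosomal sorting machinery, with a luciferase reporter. The transgenes were made and kept in FVB mice, so the groups share this strain background. The glands carry neither transgene, so that tumor and transgene cannot be told apart. The age and reproductive stage of the donors are not given in the labels.

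NRF2, encoded by Nfe2l2, is a transcription factor that is continually degraded in resting cells, because KEAP1 bridges it to a ubiquitin ligase. Oxidants and electrophiles modify KEAP1, NRF2 then accumulates, pairs with small MAF proteins and binds antioxidant response elements in front of its target genes. The targets supply glutathione, NADPH, thioredoxin and enzymes that detoxify quinones and heme. The protein is controlled largely after translation, so the level of the mRNA is not a measure of the activity of the factor.

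Levels are in normalized cpm, which are read counts that the authors scaled to an effective library size, and depth was 6176269 to 16835397 reads in the tumors and 11672487 to 23889042 in the glands. Fold changes are tumor minus gland on the scale of log2(normalized cpm + 1), which understates the change of low genes, and come from limma across all 13 libraries, with p-values adjusted by Benjamini-Hochberg over all genes tested. Genes past an FDR of 0.05 with a change of more than 2-fold were called significantly deregulated. Tsg101 itself was at 66.5 ± 15.5 normalized cpm in the tumors (SD, n = 10) and 53.2 ± 7.68 in the glands (SD, n = 3), a log2 fold change of 0.30 that was not significant (adjusted p = 0.296, limma). By immunoblot, the paper reports more exogenous TSG101 protein in most tumors than in normal glands of bitransgenic females. That is a different measure and a different group of glands from those compared here. The summed level of 12 epithelial markers ranged from 2528 to 3851 normalized cpm in the tumors and from 1738 to 3938 in the glands. That of 12 adipocyte markers was 99.2 to 539 in the tumors and 4462 to 11791 in the glands, and that of 10 milk genes was 1477 to 77488 and 167207 to 306638. In whole tissue, fewer cells of a type and less RNA per cell cannot be told apart.

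The promoters of the members were searched for the core of the antioxidant response element, TGACNNNGC on either strand. The windows of 300 bases ran from 250 bases before to 50 bases after the RefSeq gene starts (GRCm38.p6), so elements further away were not searched. The 7 members that had an entry gave 9 windows, since Txnrd1 has 3 starts. The core was present in 4 of these 9 windows, those of Nfe2l2, Gclm and Srxn1 and 1 of Txnrd1, and in 12.4% of all 32851 windows. The stretches around the matches before the starts of Nfe2l2, Gclm and Txnrd1 are shown because they are candidate NRF2 elements, with the match in capitals on the strand of the gene.
Nfe2l2, chr2:75704855-75704913, minus strand: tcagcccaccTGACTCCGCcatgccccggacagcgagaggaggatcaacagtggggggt
Gclm, chr3:122245383-122245471, plus strand: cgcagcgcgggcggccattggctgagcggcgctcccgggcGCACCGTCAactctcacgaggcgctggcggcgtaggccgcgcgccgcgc
Txnrd1, chr10:82859074-82859162, plus strand: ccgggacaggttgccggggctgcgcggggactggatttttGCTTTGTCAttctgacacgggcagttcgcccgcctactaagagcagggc
The matches began 240 bases before the start of Nfe2l2, 134 bases before that of Gclm and 92 bases before one of the 3 starts of Txnrd1, the last 2 on the strand opposite to the gene. For Gclm the start of the window lies inside the gene span given below, so the match is nearer to the first base of that span. In Srxn1 the core lay 28 bases after the start on the opposite strand and is not shown. A narrower form, TGANTCAGC, chosen after the sequences had been read, was present in 1.19% of all windows and, among the members, in Srxn1, where it began 45 bases before the start.
Srxn1, chr2:152105439-152105523, plus strand: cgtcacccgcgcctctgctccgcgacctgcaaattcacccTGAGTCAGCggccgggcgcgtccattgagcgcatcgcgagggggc
Neither form was present in the windows of Keap1, Nqo1 and Gpx2, and sequence beyond these windows was not searched. The 120 bases before the start of Nqo1 are shown because its mRNA was the only one significantly deregulated among the members tested.
Nqo1, chr8:107403206-107403325, minus strand: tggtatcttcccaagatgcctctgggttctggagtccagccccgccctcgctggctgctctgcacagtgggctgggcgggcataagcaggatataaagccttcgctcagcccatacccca

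Of the 10 members, 9 passed the filter on low abundance, which required more than 5 normalized cpm in at least 7 of 13 libraries, and Gpx2 did not. The tumors alone could meet this filter and the glands alone could not, so genes high only in the glands were left out. Nqo1, an enzyme that reduces quinones, was the only one of the 9 that was significantly deregulated, and it was higher in the tumors. It met the filter through the tumors, as glands 1 and 2 were at 1.67 and 3.41 normalized cpm. In the fit without the filter it was significantly higher too (adjusted p = 0.0124, limma). Among all 11795 genes tested, 10.2% were significantly higher and 17.2% were significantly deregulated in either direction, so 1 of 9 is close to the background. Without the filter Gpx2, a glutathione peroxidase of epithelial cells, was significantly higher as well. The median log2 fold change of the 9 members was 0.12, and that of all genes tested was 0.01. The regulators Nfe2l2 and Keap1, both subunits of the enzyme that limits glutathione synthesis, and thioredoxin reductase were not significantly deregulated. No member was significantly lower by limma, edgeR or DESeq2, and 1 of the 4 with a negative fold change, Gclc, had an unadjusted p below 0.05, as did 38.3% of all genes tested.

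**Figure D1:**
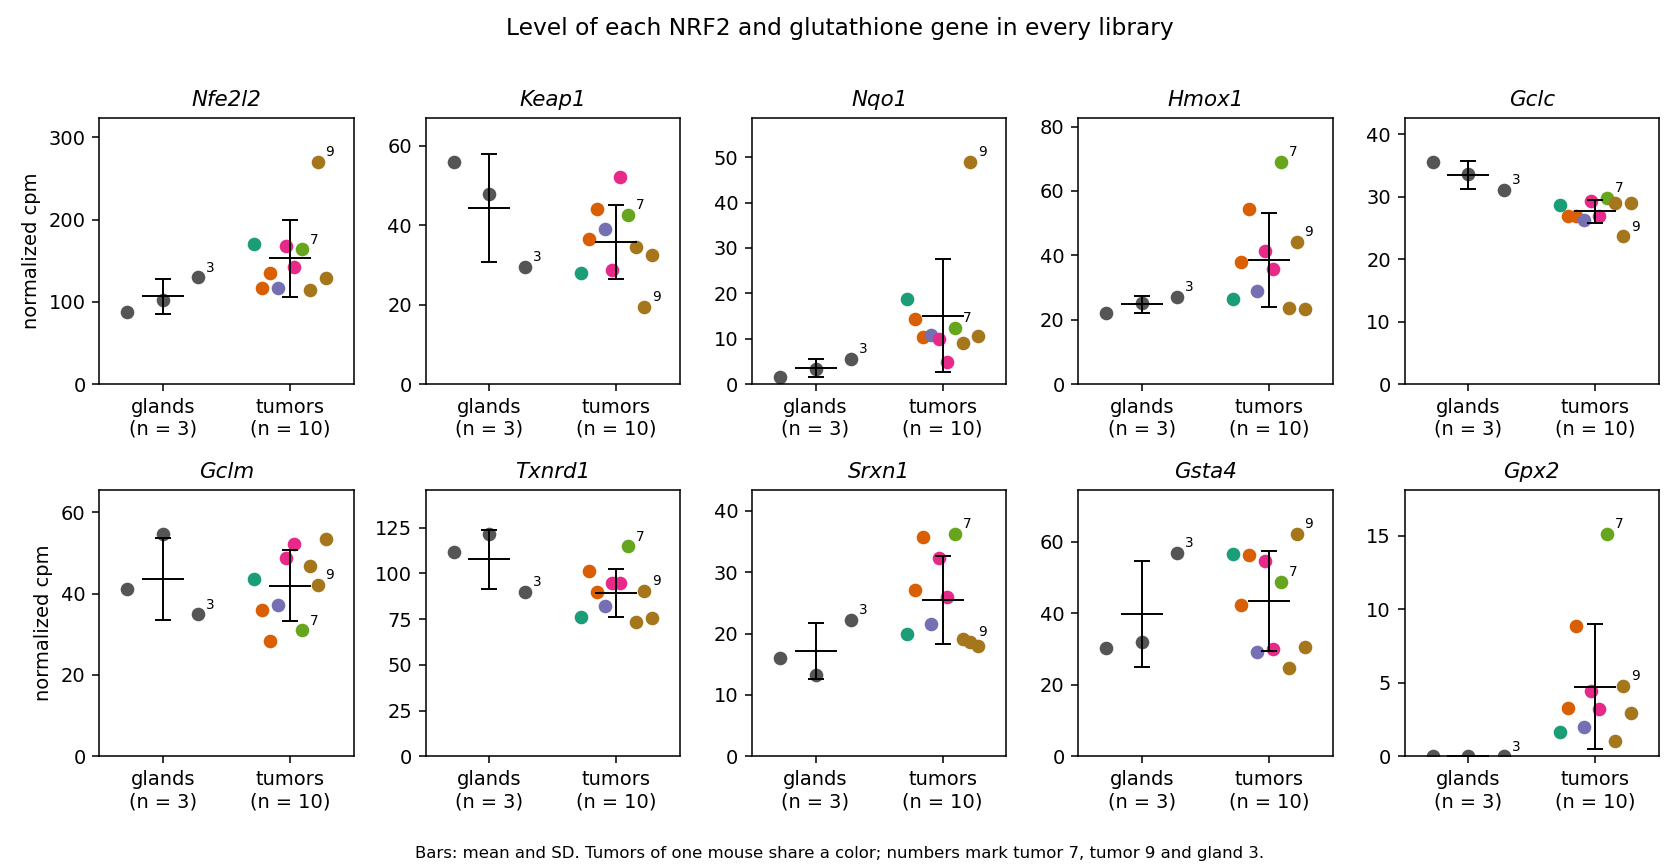
Level of each of the 10 members in normalized cpm on a linear axis from 0 that differs between panels, with a point per library for 10 tumors and 3 glands and bars for the mean ± SD. The libraries tumor 7, tumor 9 and gland 3 carry their numbers. The tumors and glands overlap for every member except Gclc, where all tumors lie below the glands, and Gpx2, where the glands are at 0.

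Among the regulators, Nfe2l2 (Entrez 18024, chr2:75675513-75704663) ranged in the tumors from 114 normalized cpm in tumor 8 over a median of 139 to 270 in tumor 9, and the glands stood at 88.3, 101.8 and 130.0. Tumors and glands overlapped, with 6 of 10 tumors above all glands. The mean was 153 ± 46.5 in the tumors (SD, n = 10) and 107 ± 21.2 in the glands (SD, n = 3). The difference of 0.48 on the log2 scale (SE 0.23, 95% interval -0.017 to 0.99) did not pass the test (adjusted p = 0.144, limma). Keap1 (Entrez 50868, chr9:21229730-21239332), the adaptor that marks NRF2 for degradation, ranged from 19.6 in tumor 9 over a median of 35.6 to 52.1 in tumor 6, beside 56.0, 47.8 and 29.5 in the glands. A total of 3 tumors were below all glands, and the log2 fold change of -0.30 (SE 0.25, 95% interval -0.84 to 0.24) was not significant (adjusted p = 0.422, limma).

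Nqo1 (Entrez 18104, chr8:107388225-107403205) ranged from 4.91 normalized cpm in tumor 6 over a median of 10.7 to 48.9 in tumor 9, and was at 1.67, 3.41 and 5.61 in the glands. All tumors other than tumor 6 were above the highest gland. The mean was 15.1 ± 12.4 in the tumors (SD, n = 10) against 3.56 ± 1.97 in the glands (SD, n = 3), with a log2 fold change of 1.67 (SE 0.46, 95% interval 0.68 to 2.65, adjusted p = 0.0139, limma). Tumor 9 stood apart from the tumors 8 and 10 of the same mouse, which were at 9.18 and 10.5. Without tumor 9 the log2 fold change was 1.46 (adjusted p = 0.00399, limma). The call was lost without gland 1 (log2 fold change 1.33, adjusted p = 0.107, limma), and when the libraries were scaled to the epithelial genes (1.34, adjusted p = 0.0986, limma), which moved the median of all genes to -0.36, so that Nqo1 was 1.69 above it. Over all alternatives its adjusted p ranged from 0.00116 to 0.131.

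Tumor 9 and gland 3 also differed from their groups in other measures. The precursor of ribosomal RNA, Rn45s, took 27.4% of the reads of tumor 9 and at most 9.32% in the other tumors, and 4.35% in gland 3 against 0.324% and 0.296% in the other glands. The summed level of the 10 listed macrophage markers was highest in the same libraries, at 4537 normalized cpm in tumor 9, in a range over the tumors that began at 940, and at 1868 in gland 3 against 823 and 546. The part of these measures in the level of Nqo1 was not tested. Without both libraries, a comparison added after the data had been seen, the log2 fold change of Nqo1 was 1.78 (adjusted p = 0.00195, limma), and the macrophage sums of the remaining tumors, 940 to 2904, were still above those of the remaining glands. Tumor 9 had the highest Nfe2l2, Nqo1 and Gsta4 and the lowest Keap1 and Gclc of the tumors, and gland 3 had the same extremes among the glands.

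Hmox1 (Entrez 15368, chr8:75093618-75100593), which opens the heme ring and releases iron and biliverdin, ranged from 23.3 normalized cpm in tumor 10 over a median of 36.9 to 69.0 in tumor 7, and the glands were at 22.1, 25.1 and 27.2. It was above all glands in 7 of 10 tumors, and the groups overlapped. The mean was 38.5 ± 14.6 in the tumors (SD, n = 10) and 24.8 ± 2.56 in the glands (SD, n = 3), and the difference of 0.54 on the log2 scale (SE 0.28, 95% interval -0.072 to 1.15) was not significant (adjusted p = 0.184, limma).

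Glutathione synthesis starts with glutamate-cysteine ligase, whose catalytic subunit is Gclc and whose modifier subunit is Gclm. Gclc (Entrez 14629, chr9:77754535-77794489) was the most even member among the tumors, from 23.7 normalized cpm in tumor 9 over a median of 27.9 to 29.8 in tumor 7, with a coefficient of variation of 6.77%. In the glands it was at 35.6, 33.7 and 31.1, so that all 10 tumors lay below all glands, a pattern that 8.53% of the genes tested shared. The log2 fold change was small, -0.27 (SE 0.12, 95% interval -0.52 to -0.014), and did not pass the test (adjusted p = 0.110, limma). DESeq2 on the recovered reads gave an adjusted p of 0.0146 with a change under 2-fold. With epithelial scaling, which lowers the median of all genes to -0.36, Gclc, Keap1 and Txnrd1 passed the FDR at log2 fold changes of -0.64, -0.68 and -0.65 (adjusted p = 0.0357, 0.0111 and 0.0423, limma), still under 2-fold, and relative to that median they were at -0.29, -0.32 and -0.30.

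Gclm (Entrez 14630, chr3:122245487-122267215) ranged from 28.3 in tumor 3 to 53.5 in tumor 10, around glands at 41.2, 54.6 and 34.9. The mean was 42.0 ± 8.67 in the tumors (SD, n = 10) and 43.6 ± 10.1 in the glands (SD, n = 3), a log2 fold change of -0.057 (SE 0.20, 95% interval -0.50 to 0.38, adjusted p = 0.866, limma) whose sign turned when tumor 3 or gland 2 was left out. The log2 ratio of Gclm to Gclc, which barely depends on the scaling of a library, was 0.558 ± 0.306 in the tumors (SD, n = 10), from 0.0531 to 0.929, and 0.349 ± 0.288 in the glands (SD, n = 3), from 0.161 to 0.680. The difference of 0.21 was within the spread of the libraries (exact permutation test, two-sided, p = 0.325, 286 permutations, smallest possible p 0.0035).

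In the thioredoxin branch, Txnrd1 (Entrez 50493, chr10:82833951-82897724), the cytosolic thioredoxin reductase, ranged from 73.6 normalized cpm in tumor 8 over a median of 90.0 to 115 in tumor 7, beside 111, 121 and 90.0 in the glands. The tumors were below all glands in 5 of 10 cases, and the log2 fold change of -0.27 (SE 0.16, 95% interval -0.61 to 0.071) was not significant (adjusted p = 0.235, limma). Reads of the overlapping gene Eid3 could not be told from those of Txnrd1 where their exons coincide. Srxn1 (Entrez 76650, chr2:152105524-152111376), sulfiredoxin, which returns overoxidized peroxiredoxins to their active form, ranged from 17.9 in tumor 10 over a median of 23.8 to 36.2 in tumor 7, and the glands were at 16.0, 13.2 and 22.2. In 5 of 10 tumors it was above all glands. The log2 fold change was 0.53 (SE 0.24), and although its 95% interval of 0.012 to 1.04 lay above 0, it did not pass after adjustment (adjusted p = 0.122, limma). It passed the FDR, still under 2-fold, once the animal with tumors 8, 9 and 10 was left out (adjusted p = 0.0475, limma) and without tumor 9 and gland 3 (adjusted p = 0.0412, limma), the latter as did Nfe2l2 (adjusted p = 0.0417, limma).

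Among the enzymes that use glutathione, Gsta4 (Entrez 14860, chr9:78191966-78209349), a transferase for lipid aldehydes such as 4-hydroxynonenal, was spread widely in both groups. It ranged from 24.7 normalized cpm in tumor 8 to 62.1 in tumor 9, and was at 30.3, 32.1 and 56.9 in the glands. The difference of 0.12 on the log2 scale (SE 0.30, 95% interval -0.52 to 0.75, adjusted p = 0.805, limma) changed sign without gland 1 or gland 2 and under epithelial scaling. Reads shared with other alpha-class transferases could not be separated.

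Gpx2 (Entrez 14776, chr12:76792335-76795554) reduces hydroperoxides with glutathione and is known from the gut and other epithelia. It was low but present in every tumor, from 1.06 normalized cpm in tumor 8 over a median of 3.26 to 15.1 in tumor 7, on 9 to 144 reads per tumor and 445 in all. No read was counted in any gland, and the largest count still compatible with 0, taken as 3 reads, would be 0.128 to 0.366 normalized cpm there. Every tumor lay above the largest of these limits, and 11.4% of all 15213 listed genes had all tumors above all glands. The tumor mean of 4.74 ± 4.25 (SD, n = 10) was at least 21.9-fold higher than the mean of the limits of the 3 glands. In the fit without the filter, in which 20.6% of genes were significantly deregulated and 10.5% were significantly higher, Gpx2 passed the test (adjusted p = 0.00222, limma). It stayed significant in all alternatives run, with an adjusted p between 3.82e-09 and 0.0452. The pseudogene Gpx2-ps1 has a similar sequence, and reads shared with it could not be separated.

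**Figure D2:**
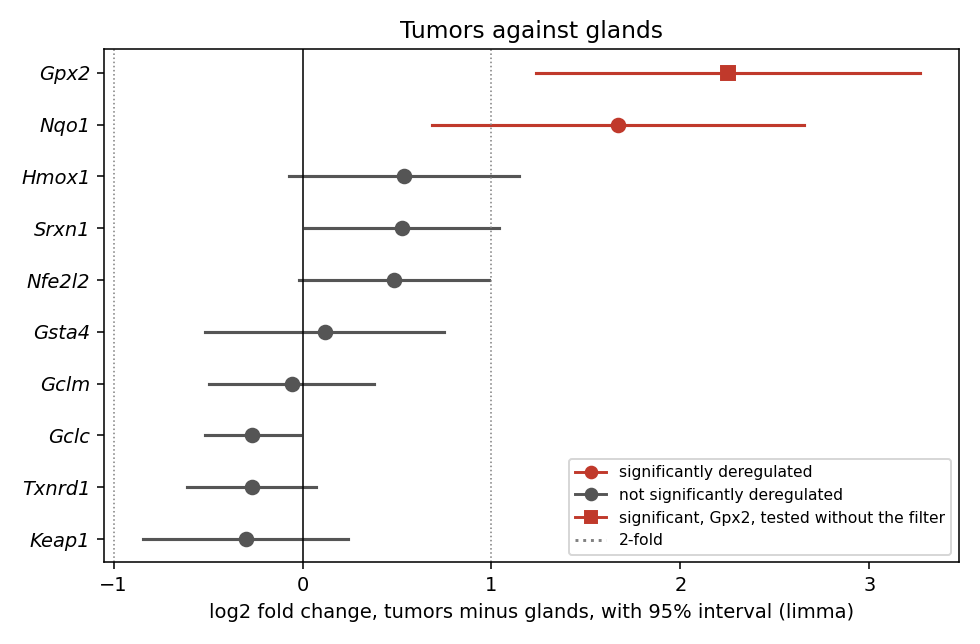
Log2 fold change of each member, tumor minus gland, on the log2(normalized cpm + 1) scale, with the 95% interval of limma as bars and lines at no change and at 2-fold. Gpx2, at 0 in all glands, is from the fit without the filter, and its size depends on the pseudocount. Nqo1 and Gpx2 lie beyond 2-fold with intervals above 0, and the other members lie between -0.30 and 0.54.

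The members that stood out differed from tumor to tumor. Tumor 7, the only tumor of its mouse, had the highest Hmox1, Gclc, Txnrd1, Srxn1 and Gpx2 of all tumors, while its Nqo1 was 12.5 normalized cpm beside a median of 10.7. Tumor 3, from another mouse, was next to tumor 7 for Hmox1, Srxn1 and Gpx2, at 54.3, 35.6 and 8.88. Tumor 9 instead had the highest Nqo1, Nfe2l2 and Gsta4. Tumors 7 and 3 also had high summed levels of the 12 squamous markers, 6985 and 4142 normalized cpm, in a range of 1244 to 6985 over the tumors and 178 to 342 over the glands, in which Ivl, Sprr1b and Dsg3 were at 0. The part of this marker program in the level of Gpx2, Hmox1 and Srxn1 was not tested.

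**Figure D3:**
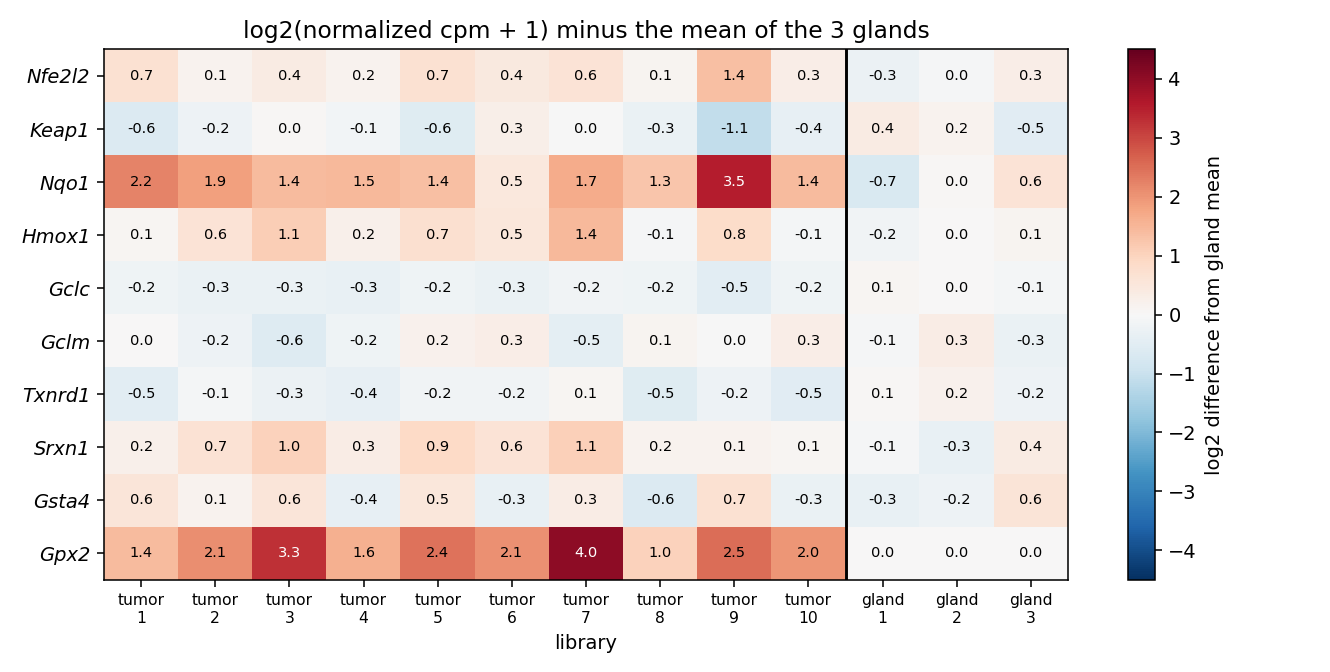
Level of each member (rows) in each tumor and each gland (columns) as log2(normalized cpm + 1) minus the mean of the 3 glands, on a color scale centered on 0. Tumor 7 is strongest for Gpx2, Hmox1 and Srxn1, and tumor 9 for Nqo1 and Nfe2l2.

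For a comparison between genes the levels were divided by exonic length. In the tumors Nfe2l2 was highest, at 61.8 ± 18.8 normalized cpm per kb (SD, n = 10), followed by Gsta4 at 44.5 ± 14.3, Hmox1 at 24.5 ± 9.30 and Txnrd1 at 21.9 ± 3.18. Nqo1 at 9.69 ± 8.01, Srxn1 at 9.04 ± 2.54, Gclc at 8.08 ± 0.547, Keap1 at 7.95 ± 2.07 and Gclm at 7.51 ± 1.55 were within their spread of each other, and Gpx2 was at 4.45 ± 3.98. Neighbors in this order differed by less than the sum of their SDs in every case except Txnrd1 and Nqo1. In the glands the order was led by Nfe2l2 at 43.1 ± 8.58 (SD, n = 3) and Gsta4 at 40.7 ± 15.3, and Nqo1 at 2.29 ± 1.27 was last apart from Gpx2.

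Further genes of the same systems were counted in 9 lists written from general knowledge of the pathway. Of 113 genes, 105 were listed and 95 were tested, of which 8 were significantly higher, 12 significantly lower and 75 not significantly deregulated. Their median log2 fold change was -0.01, beside 0.01 for all genes tested, and 10.2% of all genes tested were significantly higher and 6.99% significantly lower. The genes that were lower lay mainly in the supply of NADPH, with 5 of 7, and among superoxide dismutases and catalase, with 3 of 4. Genes high only in the glands could not pass the filter. Without it, 9 of the 105 listed genes were significantly higher and 16 significantly lower, beside 10.5% and 10.1% of all 15213 genes.

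**Figure D4:**
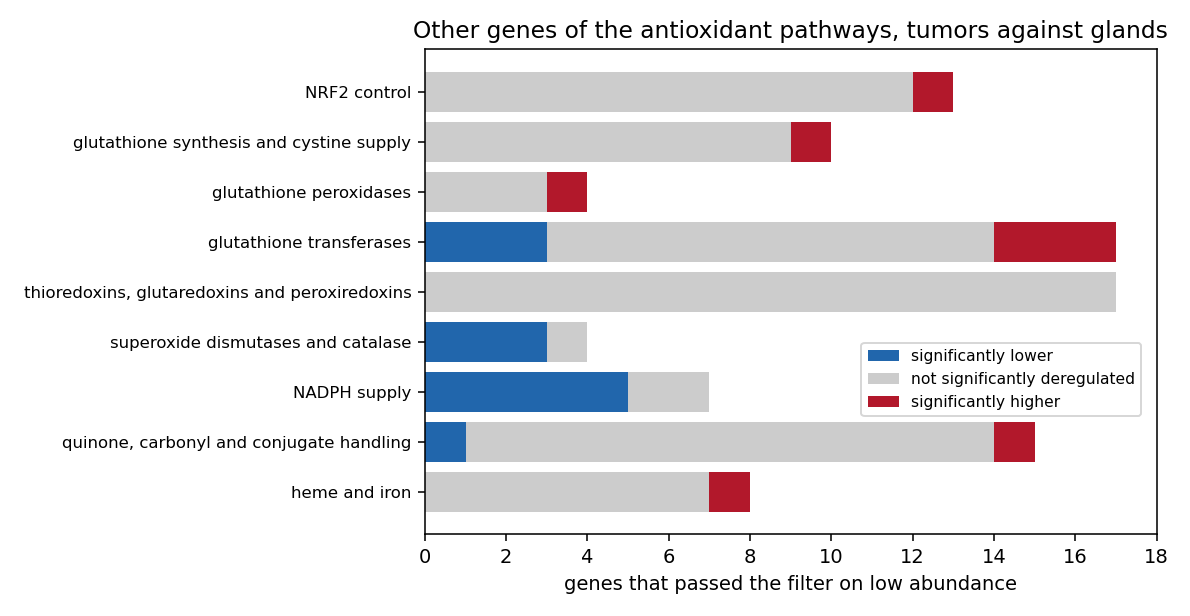
Number of tested genes in each of 9 lists (horizontal axis) that were significantly lower, not significantly deregulated or significantly higher in the tumors. The lists with the most lower genes are NADPH supply, 5 of 7, and superoxide dismutases and catalase, 3 of 4.

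NADPH is the electron source of glutathione reductase, thioredoxin reductase and NQO1. Me1, malic enzyme, ranged from 68.1 to 160 normalized cpm in the tumors and was at 538, 457 and 731 in the glands (log2 fold change -2.35, adjusted p = 9.78e-06, limma). Tkt, transketolase of the pentose phosphate pathway, ranged from 89.0 to 551 in the tumors beside 1330, 1355 and 939 in the glands (log2 fold change -2.30, adjusted p = 4.77e-04, limma). All tumors were below all glands for both genes. Taldo1, transaldolase, fell as well (log2 fold change -1.26, adjusted p = 0.00232, limma), as did G6pdx and Pgd, the dehydrogenases of the pathway, whose calls were both lost with DESeq2, with reads summed per mouse and without any of tumors 1, 8, 9 and 10, all tumors of the mouse of tumors 8, 9 and 10, gland 1 or gland 2, while Idh1 and Pgls were not significantly deregulated. The log2 fold changes of G6pdx and Pgd, -1.02 and -1.05, lay near the 2-fold limit, and with DESeq2 they were -0.94 and -0.99 and still passed the FDR (adjusted p = 0.0157 and 0.0191, DESeq2). Adipocyte and milk gene levels, given above, were lower in all tumors than in all glands, and their part in these differences was not tested.

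Sod1, the cytosolic superoxide dismutase, ranged from 44.8 to 85.6 normalized cpm in the tumors and was at 160, 168 and 143 in the glands (log2 fold change -1.40, adjusted p = 4.40e-05, limma). Cat, catalase, which breaks down hydrogen peroxide, ranged from 60.2 to 150 beside 169, 185 and 206 (log2 fold change -1.07, adjusted p = 0.00160, limma), and Sod3, the secreted dismutase, fell further (log2 fold change -2.41, adjusted p = 0.00837, limma). All tumors were below all glands for these 3 genes. The call of Cat was lost without gland 3, where its log2 fold change was -0.997 (adjusted p = 0.00835, limma), and mitochondrial Sod2 was not significantly deregulated, although it passed with epithelial scaling. The adipocyte sums given above and those of 12 endothelial markers, 109 to 240 normalized cpm in the tumors and 441 to 895 in the glands, were lower in all tumors than in all glands, and their part in these differences was not tested.

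Among glutathione transferases, 3 of 17 genes were higher and 3 lower. This balance moved with the method. It was 3 higher and 5 lower of 19 without the filter, 5 and 3 with DESeq2, 2 and 4 with edgeR, and 4 and 5 with reads summed per mouse. At an FDR of 0.05 with no limit on the fold 9 of the 17 passed, beside 27.8% of all genes tested. Gstm5 ranged from 78.7 to 282 normalized cpm in the tumors beside 20.04, 27.3 and 33.8 in the glands (log2 fold change 2.42, adjusted p = 1.89e-05, limma), and Mgst2 and Gstp2 rose by log2 fold changes of 1.92 and 1.21 (adjusted p = 0.0281 and 0.00847, limma), although only 7 and 4 of 10 tumors were above all glands. Gstz1, Gstm2 and Gstm1 were lower, with log2 fold changes of -1.39, -1.21 and -1.15 (adjusted p = 0.00843, 0.00297 and 0.00124, limma), and all tumors below all glands. Gstz1 was at 354.6 normalized cpm in gland 3 against 96.2 and 104 in the other glands and 39.3 to 95.3 in the tumors, and gland 3 also had the highest adipocyte and milk sums, 11791 and 306638, whose part in the level of Gstz1 was not tested. The Gstm and Gstp genes have close paralogs, and how the counting split reads between such copies is not known, so their values are uncertain. The calls of Mgst2 and Gstp2 were lost without gland 1 or gland 2, with edgeR and with epithelial scaling, and that of Gstz1 without gland 3, where its log2 fold change was -0.79 (adjusted p = 0.0495, limma). With edgeR the log2 fold changes of Mgst2 and Gstp2 were 2.10 and 1.12 (adjusted p = 0.0698 and 0.0580, edgeR), and with epithelial scaling they were 1.90 and 1.21 above the median of all genes. DESeq2 gave no adjusted p for Gstz1, and Gstm2 did not pass the filter with epithelial scaling.

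The remaining lists held 1 higher gene each, or none. Gpx8, a peroxidase of the endoplasmic reticulum, ranged from 23.6 to 68.5 normalized cpm in the tumors beside 6.38, 9.91 and 16.3 in the glands (log2 fold change 1.95, adjusted p = 1.65e-04, limma). It was the only one of 4 tested peroxidases that was significantly higher. Ggct, which acts in glutathione breakdown, rose among 10 genes of glutathione synthesis and cystine supply (log2 fold change 1.26, adjusted p = 0.00710, limma). Maff, a small MAF partner of NRF2, rose among 13 genes of NRF2 control (log2 fold change 1.12, adjusted p = 0.0101, limma).

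In quinone, carbonyl and conjugate handling, Ptgr1, a reductase of prostaglandins and lipid aldehydes, rose (log2 fold change 2.03, adjusted p = 2.37e-05, limma) and Ephx2, soluble epoxide hydrolase, fell (log2 fold change -3.58, adjusted p = 4.57e-06, limma) among 15 genes. Ephx2 ranged from 1.89 to 9.04 normalized cpm in the tumors and was at 61.1, 55.7 and 91.1 in the glands, highest in gland 3, which had the highest adipocyte sum. The adipocyte and milk sums were lower in all tumors than in all glands, and their part in the fall of Ephx2 was not tested. The iron exporter Slc40a1 rose among 8 genes of heme and iron (log2 fold change 1.14, adjusted p = 0.0406, limma). It ranged from 20.2 to 79.9 normalized cpm in the tumors and was at 12.5, 12.6 and 34.5 in the glands. The macrophage sums ranged from 940 to 4537 in the tumors and from 546 to 1868 in the glands, with gland 3 highest of the glands for both, and their part in the level of Slc40a1 was not tested. The call of Slc40a1 was lost with edgeR, with epithelial scaling and without any of tumors 1, 5, 7 and 10, the mouse of tumors 8, 9 and 10 together, gland 1 or gland 2, that of Maff with epithelial scaling and without tumor 7, and that of Ggct with epithelial scaling. Without tumor 7 Maff was at 0.99 (adjusted p = 0.00430, limma), just under 2-fold. Relative to the shifted median of all genes under epithelial scaling, Slc40a1, Maff and Ggct were at log2 fold changes of 1.12, 1.12 and 1.26. Fth1, the heavy chain of ferritin, had a log2 fold change of -1.18 that did not pass (adjusted p = 0.0521, limma), and it was significantly lower with DESeq2, with epithelial scaling and without any of tumors 5, 6 and 9.

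None of the 17 tested thioredoxins, glutaredoxins, peroxiredoxins and related genes was significantly deregulated by limma, edgeR or DESeq2, while 7 had an unadjusted p below 0.05, a share close to the 38.3% of all genes tested. At an FDR of 0.05 with no limit on the fold 3 of the 17 passed, beside 27.8% of all genes tested. Prdx5, a peroxiredoxin, was higher and Txnrd2, the mitochondrial thioredoxin reductase, and Sesn3, a sestrin, were lower by less than 2-fold, with log2 fold changes of 0.65, -0.54 and -0.64 (adjusted p = 0.0382, 0.00399 and 0.00775, limma). Without gland 3 the genes Prdx1, Txn1 and Glrx3 were significantly higher. Txnip, which binds and inhibits thioredoxin, was significantly lower without tumor 9 or tumor 10, without the mouse of tumors 8, 9 and 10, and with reads summed per mouse, and Sesn3 with epithelial scaling.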

How the data were processed

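RNA of flash-frozen tumors and glands was sequenced, and per the paper's methods and the labels reads were mapped to mm10 with Rsubread, counted per gene with featureCounts and normalized with edgeR. Whether counting used strand is not given in the sources used here. The deposited signal values are read counts that the authors scaled to each library's effective size. In every library 100% of values were whole multiples of a single read (tolerance 0.1 read), from which counts were recovered. Because the table held normalized values, limma was run on log2(normalized cpm + 1) of all 13 libraries with condition only. Genes at 5 or less in the majority of libraries (3418) were left out. Calls needed an FDR of 0.05 and a change above 2-fold. Gpx2 came from the same fit of all 15213 genes.

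The members and lists were chosen with earlier results of these data known. Named genes are the members, Tsg101, up to 3 significantly higher and 3 lower genes per list, and the 3 genes most like Nqo1, of which 1 is not reported here. G6pdx, Pgd, Idh1, Pgls, Sod2, Fth1, Gsr, Prdx1, Prdx5, Txn1, Txnip, Txnrd2, Glrx3 and Sesn3 were named after their values were seen. Tumors of a mouse were fitted as separate samples, and p-values measure the spread between libraries. The labels name 2 sequencing sites without assigning libraries to them, so no values within a site could be given. The paper's methods name only the core facility at UNMC. Depth limits Gpx2 most, and limits from counts (3 reads, 95% confidence) cover counting error only. The chi-square per gene between any pair of libraries was at least 21.9, so no library appeared to be listed again. Coordinates and promoters are from RefSeq GRCm38.p6 (15106 IDs matched), with no promoter entry for Hmox1, Gclc and Gsta4. Exonic lengths are unions of exons of the GENCODE vM21 basic annotation. The fits were tested on simulated data. R 4.3.3, limma 3.58.1, edgeR 4.0.16 and DESeq2 1.42.0 were used. Alternatives were other pseudocounts, no filter, edgeR and DESeq2 on recovered reads, other scalings, mouse as a block, reads summed per mouse, a replicate block, and leaving out libraries.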

Additional observations from a re-analysis of the deposited data

Results flagged for a closer look

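Of 13 quantities examined for a library that stands far from the others of its group, 3 were extreme, all in tumor 9, and such a rule marks some groups by chance. Nfe2l2 was at 270 normalized cpm in tumor 9 and at most 171 in the other tumors, a gap of 0.637 of the whole range. Nqo1 was at 48.9 and at most 18.8, a gap of 0.684 of the range. The share of reads on Rn45s was 27.4% and at most 9.32%, a gap of 0.670 of the range. The limit for 10 libraries is 0.466.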

How the results depend on the processing

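The count of significantly deregulated members among those that passed the filter (1, higher) became 2 without the filter and 0 with epithelial scaling, and leaving out 1 library gave 0 to 1, with 0 without gland 1. No member was significantly lower in any alternative. Other pathway genes (20: 8 higher, 12 lower) had 3 higher and 16 lower with epithelial scaling and 9 higher and 16 lower without the filter. Leaving out 1 library gave 15 to 22 in all, 5 to 12 higher (5 without gland 1, 12 without gland 3) and 10 to 14 lower. The sign turned for Gsta4 with epithelial scaling (-0.26, which is 0.09 above the median of all genes), without gland 1 (-0.045) and without gland 2 (-0.0044), and for Gclm without tumor 3 (0.00085) and without gland 2 (0.11). Leaving out 1 library moved the log2 fold change of Gsta4 between -0.045 and 0.40 and that of Gclm between -0.20 and 0.11. Of 250 pairs of a member and an alternative, 242 kept direction and side of the threshold. Over all genes, epithelial scaling gave 729 higher and 1644 lower against 1204 and 825, with the median at -0.36, no filter 1603 and 1538, and leaving out gland 3 1537 and 1123. The cause of these changes was not tested. Depth limits Gpx2 most.

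Tumors and glands share the numbers 1 to 3 in their names, but libraries of the same number did not deviate together (r = -0.579, 0.0447 and -0.664 across genes), so the numbers do not pair them. With the replicate block 0 of the 9 members that passed the filter were significantly deregulated, Nqo1 had an adjusted p of 0.131 and Gpx2, without the filter, one of 0.0452 (limma), and 3 other pathway genes were called (1 higher, 2 lower), beside 362 higher and 182 lower of all genes.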

Other observations

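Dbndd2 and Tm4sf1 were the genes whose levels followed Nqo1 most closely over the 13 libraries, with a root mean square difference of centered log2 values of 0.304 and 0.336. As for Nqo1, Dbndd2 and Tm4sf1 were highest in tumor 9, at 207 and 339 normalized cpm, lowest among the tumors in tumor 6, at 36.7 and 43.2, and highest among the glands in gland 3, at 26.1 and 68.5. Both genes were chosen for this likeness over the same libraries, so the shared extremes come with the choice and are not a separate result.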
